A study of Homo sapiens with 12 samples.

Results

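TRIM28 (ENSG00000130726.12) is a plus-strand gene of chromosome 19 with its borders at 58544064 and 58550722 in hg38, and its peaks were taken as all plus-strand peaks within these borders in the 4 deposited lists of dSpCas9-bound RNA. There were 104 such peaks among 18128 in all. The V5 list over size-matched input held 33 of its 6605 peaks in TRIM28, and the V5 list over the empty vector IP held 30 of 3005. In the FLAG lists these numbers were 22 of 6554 over size-matched input and 19 of 1964 over the empty vector IP. Where the 4 lists were intersected, 19 of the 749 intervals lay in TRIM28, and H2AC11 came next with 13. The gene was selected on its number of peaks in these same lists, so its peak counts, its rank and the overlap among its lists describe how it was chosen and were not tested.

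The peaks came from eCLIP, in which UV light fixes proteins to RNA in contact with them, immunoprecipitation (IP) pulls down 1 protein with that RNA, and the RNA is sequenced. HEK 293T cells (Lenti-X 293T, a human embryonic kidney line with the large T antigen of SV40) were transfected with a plasmid for V5-dSpCas9, one for 3xFLAG-dSpCas9, or the empty vector pCDNA3.1(-). dSpCas9 is a Streptococcus pyogenes Cas9 without nuclease activity, here without a nuclear localization signal, and no guide RNA was on these plasmids. All 12 libraries shared this cell line, transient transfection, 2 exposures to 400 mJ/cm2 of UV and a membrane cut from 115 kDa upward. The 6 groups of 2 replicates were V5-dSpCas9 V5 IP, 3xFLAG-dSpCas9 FLAG IP, the size-matched input of each (RNA from the same membrane region with no IP), and the V5 and FLAG IPs of cells with the empty vector. Each list compares the IP of 1 tagged protein with 1 of its controls and gives 1 value per peak for both replicates together, the log2 of IP reads over control reads, averaged geometrically (log2 enrichment). No value per replicate and no read count was used here, so the depth and the replicate error of each value are unknown and differences between values carry no error.

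TRIM28, also called KAP1 or TIF1-beta, is a corepressor that KRAB zinc finger proteins bring to DNA, above all to transposable elements, where it gathers the histone methyltransferase SETDB1, HP1 proteins and the NuRD complex. The protein begins with a RING finger, B-boxes and a coiled coil, carries an HP1 box in its middle part, and ends with a PHD finger and a bromodomain. The PHD finger acts as a SUMO ligase for the bromodomain next to it.

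The 19 intervals of the intersection fell into 3 stretches of the spliced mRNA when gaps of up to 10 nt were joined. They are shown because all 352 nt that the 4 lists covered in common lay in them. Capitals mark the GU and the 5 stem bases of a GU-loop:5nt-stem as called when the spliced mRNA was folded. This is a GU in a loop followed directly by 5 paired bases, as in the guide RNA that Cas9 binds. A call asks only that the U has a pairing probability below 0.7. The stretch in exon 1 spans 58544871 to 58545022 (152 nt, codons 38 to 89). The stretch in exons 3 and 4 runs from 58545775 to the end of exon 3 at 58545896 and on from 58547376 to 58547382 (129 nt, codons 155 to 198). The stretch in exons 13 and 14 runs from 58549589 to 58549650 and on from 58549737 to 58549756 (82 nt, codons 641 to 668). All are read 5′ to 3′ from the plus strand of chromosome 19 of hg38, as RNA.
Exon 1 stretch: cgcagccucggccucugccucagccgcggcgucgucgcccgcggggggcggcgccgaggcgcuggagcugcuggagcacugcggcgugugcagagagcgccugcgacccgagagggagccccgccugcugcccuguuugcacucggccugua
Exons 3 and 4 stretch: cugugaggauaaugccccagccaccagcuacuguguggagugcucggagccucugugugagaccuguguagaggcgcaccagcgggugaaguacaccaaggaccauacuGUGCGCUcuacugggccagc
Exons 13 and 14 stretch: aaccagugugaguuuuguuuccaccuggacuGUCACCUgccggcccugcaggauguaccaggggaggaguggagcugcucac

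All 104 peaks lay in exons of the canonical transcript TRIM28-201, which has 17 exons and 3364 nt, with a 5′ UTR of 694 nt, a coding sequence (CDS) of 2508 nt and a 3′ UTR of 162 nt. Peaks covered 713 nt (21.2%) of this mRNA in V5 over size-matched input, 641 nt (19.1%) in V5 over the empty vector IP, 609 nt (18.1%) in FLAG over size-matched input and 403 nt (12%) in FLAG over the empty vector IP. At least 1 list covered 826 nt (24.6%), all 4 lists covered 352 nt (10.5%), and 2538 nt (75.4%) lay under no peak. By the middle of the peak, 30 of 33, 27 of 30, 21 of 22 and 19 of 19 peaks lay in the CDS, in the order of lists above. The others lay in the 5′ UTR, and no list had a peak in an intron or in the 3′ UTR. All 19 intervals of the intersection lay in the CDS.

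**Figure D1:**
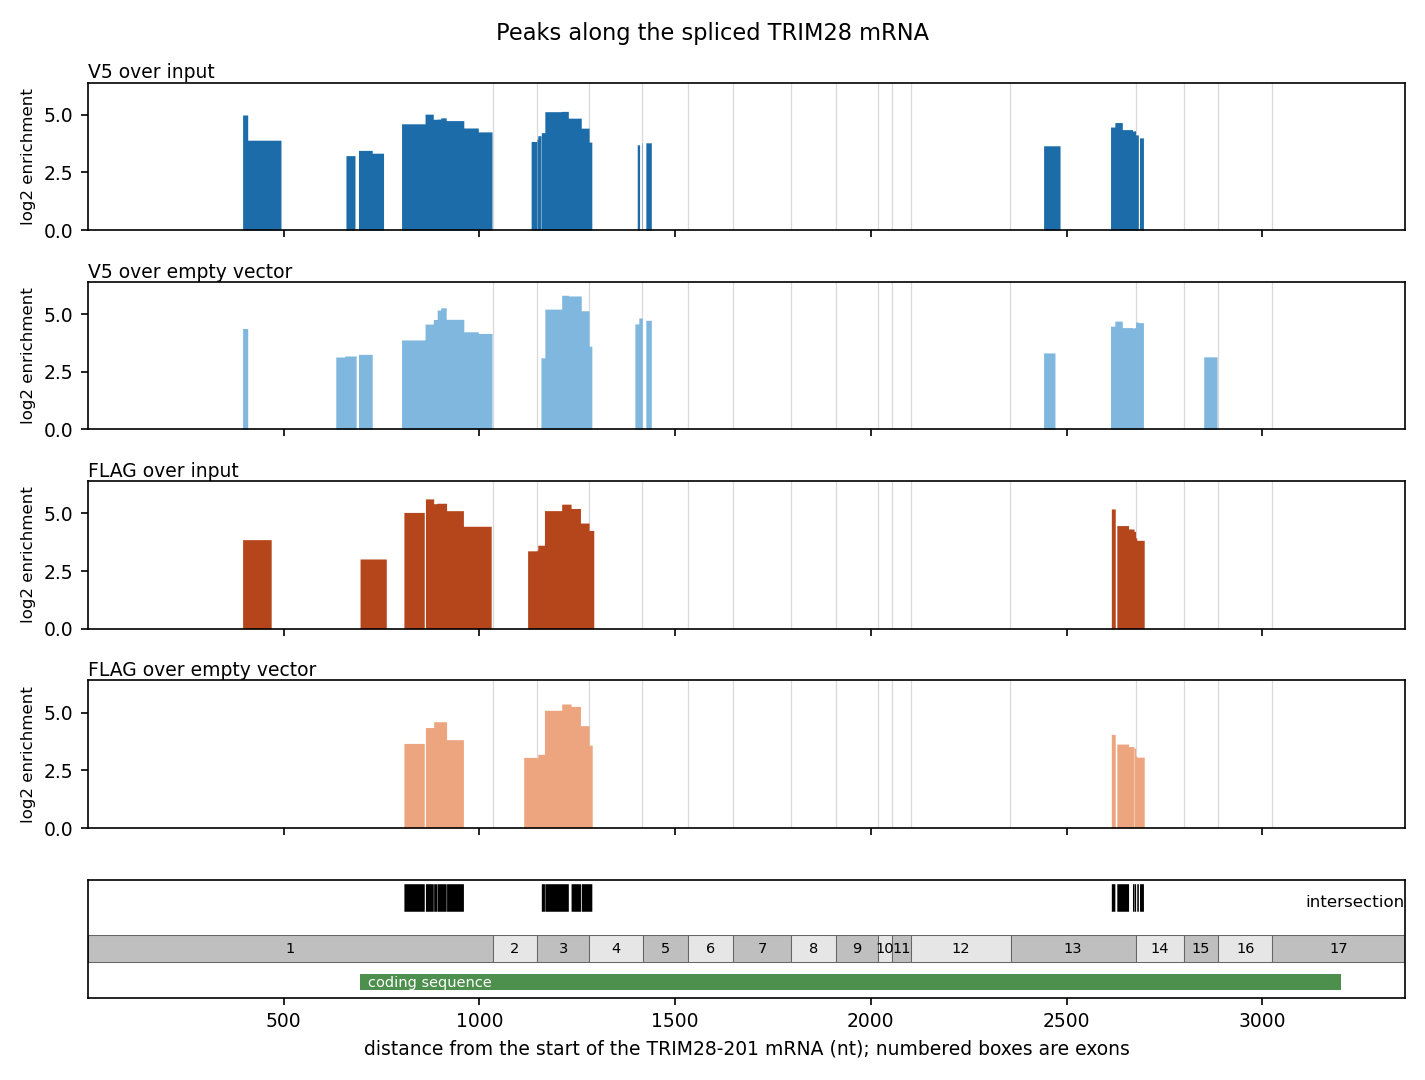
Log2 enrichment of every TRIM28 peak (y axis, 1 panel per list) against the distance in nt from the start of the spliced TRIM28-201 mRNA (x axis), with the intersection (black), the 17 exons (numbered boxes) and the coding sequence (green) below. Peaks of all 4 lists stand in exon 1, in exons 3 and 4 and in exons 13 and 14, and no list has a peak in exons 6 to 12, 16 or 17.

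The 5′ UTR carried peaks in 3 lists. A peak from 58544459 to 58544471 had a log2 enrichment of 4.99 in V5 over size-matched input and 4.37 in V5 over the empty vector IP. In V5 over size-matched input a peak of 85 nt with 3.90 followed it directly, and in FLAG over size-matched input 1 peak from 58544459 to 58544531 had 3.86. These 3 lists thus shared the left border 58544459. The annotated transcripts TRIM28-204 and TRIM28-202 begin at 58544457 and 58544473. The other UTR peaks, 1 in V5 over size-matched input and 2 in V5 over the empty vector IP, lay between 58544697 and 58544748 with values from 3.14 to 3.23. FLAG over the empty vector IP had no peak in the 5′ UTR.

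Around the start codon at 58544758 the values were low. A V5 peak from 58544755 to 58544789, which holds the start codon, had 3.46 with the input and 3.25 with the empty vector IP as control. V5 over size-matched input also had a peak from 58544790 to 58544818 with 3.33, and FLAG over size-matched input had 1 from 58544759 to 58544825 with 3.02, the lowest value of TRIM28 in any list.

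Further into exon 1 each list had a run of peaks that adjoined one another, except for a gap of 3 nt after the first peak of the run in both FLAG lists. In both V5 lists the run spanned 58544865 to 58545095 in 8 peaks with identical borders. Its values over size-matched input were 4.61, 5.03, 4.80, 4.81, 4.87, 4.75, 4.43 and 4.26 along the mRNA. Over the empty vector IP they were 3.88, 4.57, 4.77, 5.18, 5.27, 4.77, 4.23 and 4.16. The V5 values thus rose to a maximum within the run and fell towards the end of the exon under both controls. The FLAG run over size-matched input began at 58544871 and ended at 58545093, with values of 5.04, 5.63, 5.42, 5.44, 5.12 and 4.44. Its peak from 58544926 to 58544946 was the highest FLAG value of TRIM28 over size-matched input. Over the empty vector IP, the FLAG run stopped at 58545022 and had 3.67, 4.36, 4.61, 4.61 and 3.83.

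Exon 2 had few peaks, all at its end. V5 over size-matched input had 1 of 14 nt (3.84), FLAG over size-matched input 1 of 24 nt (3.38) and FLAG over the empty vector IP 1 of 34 nt (3.06). V5 over the empty vector IP had none there, and exon 2 added nothing to the intersection.

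Exon 3, of 133 nt, was the exon with the largest covered share in every list. Peaks covered 99.2% of it in V5 over size-matched input, 92.5% in V5 over the empty vector IP and all of it in both FLAG lists. The peak that begins at 58545827 was the highest of TRIM28 in 3 lists. It had 5.15 in V5 over size-matched input, 5.82 in V5 over the empty vector IP and 5.38 in FLAG over the empty vector IP, and 5.40 in FLAG over size-matched input. From 58545784, where values were 5.13, 5.22, 5.12 and 5.11 in the V5 and then the FLAG lists, enrichment stayed at 4.85 or above up to 58545874 in every list. At the end of the exon the values had dropped to 4.42, 5.14, 4.58 and 4.44. At the start of exon 3, by contrast, they lay between 3.04 and 4.22 in all lists. The annotated protein-coding transcript TRIM28-202 lacks exons 2 and 3.

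The run of exon 3 went on into exon 4 in every list. The peaks at the start of exon 4, from 58547376, were 7, 7, 12 and 8 nt long, with values of 3.81, 3.61, 4.26 and 3.59. At the end of exon 4 and in exon 5 peaks were seen in the V5 lists only. Over size-matched input there were 2 of them in exon 4, with 3.70 and 3.78, and 1 in exon 5 with 3.78. Over the empty vector IP the values there were higher, with 4.57 and 4.83 in exon 4 and 4.73 in exon 5.

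From exon 6 to exon 12 no list had a peak. In exon 13 the V5 lists had a peak from 58549416, with 3.66 against the input and 3.32 against the empty vector IP, to which no FLAG peak corresponded. The run at the end of exon 13 and the start of exon 14 was again in all 4 lists. In V5 over size-matched input its 7 peaks had 4.47, 4.66, 4.36, 4.30, 4.31, 4.13 and 4.00. The same stretch in V5 over the empty vector IP had 4.48, 4.70, 4.41, 4.40, 4.41, 4.65 and 4.63. FLAG over size-matched input began higher, at 5.19, and fell over 4.47, 4.33, 4.22 and 3.94 to 3.83. FLAG over the empty vector IP went down from 4.06 to 3.07 over 6 peaks. The last peak of the gene, from 58549999 to 58550032 in exon 15, was in V5 over the empty vector IP only and had 3.15.

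**Figure D2:**
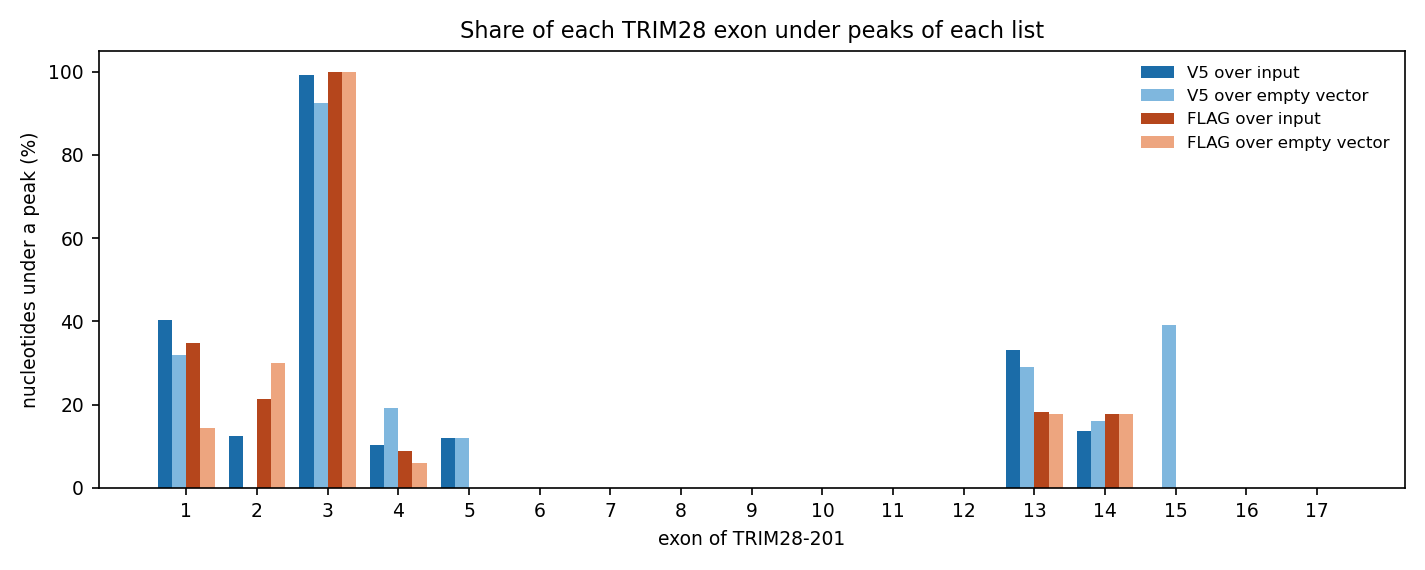
Share of the nucleotides of each TRIM28-201 exon (x axis) that lay under a peak (y axis, percent), with 1 bar per list. Exon 3 is covered for at least 92.5% in every list, exons 6 to 12, 16 and 17 have no bar, and exons 5 and 15 have bars for V5 only.

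Several of these runs ended or began exactly at an exon border. A peak with a border at the first or last nucleotide of an exon was found for 5 of 33 peaks in V5 over size-matched input, 5 of 30 in V5 over the empty vector IP, 6 of 22 in FLAG over size-matched input and 6 of 19 in FLAG over the empty vector IP. Over all peaks of these lists and all canonical transcripts, 12.7%, 16.1%, 13.5% and 14.8% had such a border. In exons 3 and 4 and in exons 13 and 14 peaks stood on both sides of the junction in every list, so that peaks adjoined each other across the junction on the spliced mRNA. Elsewhere the run in exons 13 and 14 was broken by gaps of a few nt, except in V5 over the empty vector IP.

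The p-values deposited with the peaks were capped at a −log10 of 400. In V5 over size-matched input 19 of the 33 TRIM28 peaks had this value, and in FLAG over size-matched input 16 of 22. Over the empty vector IP it was reached by 0 of 30 V5 peaks, whose values lay between 9.44 and 79.3, and by 7 of 19 FLAG peaks. The log2 enrichment of the TRIM28 peaks had medians of 4.30 (range 3.23 to 5.15) and 4.46 (3.02 to 5.63) over size-matched input for V5 and FLAG, and of 4.52 (3.10 to 5.82) and 3.67 (3.04 to 5.38) over the empty vector IP. FLAG over the empty vector IP thus had the lowest median of the 4 lists. Over all peaks of the lists the medians were 3.61 and 3.63 over size-matched input, and 3.61 and 3.59 over the empty vector IP.

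For V5, 28 of 33 peaks against the input (84.8%) had at least 50% of their length under a peak against the empty vector IP, and 22 of these pairs had identical borders. For FLAG these were 19 of 22 (86.4%), with 16 identical pairs. The same held for 34.9% of all V5 peaks and 26.7% of all FLAG peaks. Of the 28 V5 pieces under both controls, 19 were covered for at least 50% by a FLAG piece (67.9%, against 32.5% of all V5 pieces), and 1 of these had identical borders. The gene was chosen on this overlap, so nothing is read from these shares. In nucleotides, 581 of the mRNA lay under peaks of both antibodies over size-matched input, 132 under V5 only and 28 under FLAG only. Of the 581 nt, 89 lay under no peak over either empty vector IP.

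The 19 intervals that came of these overlaps were short. They measured from 3 to 52 nt with a median of 14 nt, against a median of 58 nt over all 749 intervals, and 13 of them were under 20 nt. There were 6 in exon 1 (146 nt), 6 in exons 3 and 4 (119 nt) and 7 in exons 13 and 14 (60 nt).

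Across these intervals, the log2 enrichment had a median of 4.61 (3.81 to 5.15) in V5 over size-matched input, 4.65 (3.10 to 5.82) in V5 over the empty vector IP, 5.04 (3.62 to 5.63) in FLAG over size-matched input and 3.83 (3.07 to 5.38) in FLAG over the empty vector IP. V5 and FLAG values went together when the control was the input (Pearson's r = 0.85, Spearman's rho = 0.88) and when it was the empty vector IP (r = 0.77, rho = 0.77). These are descriptions over 19 intervals of 1 mRNA, of which several share a peak and all share their libraries.

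**Figure D3:**
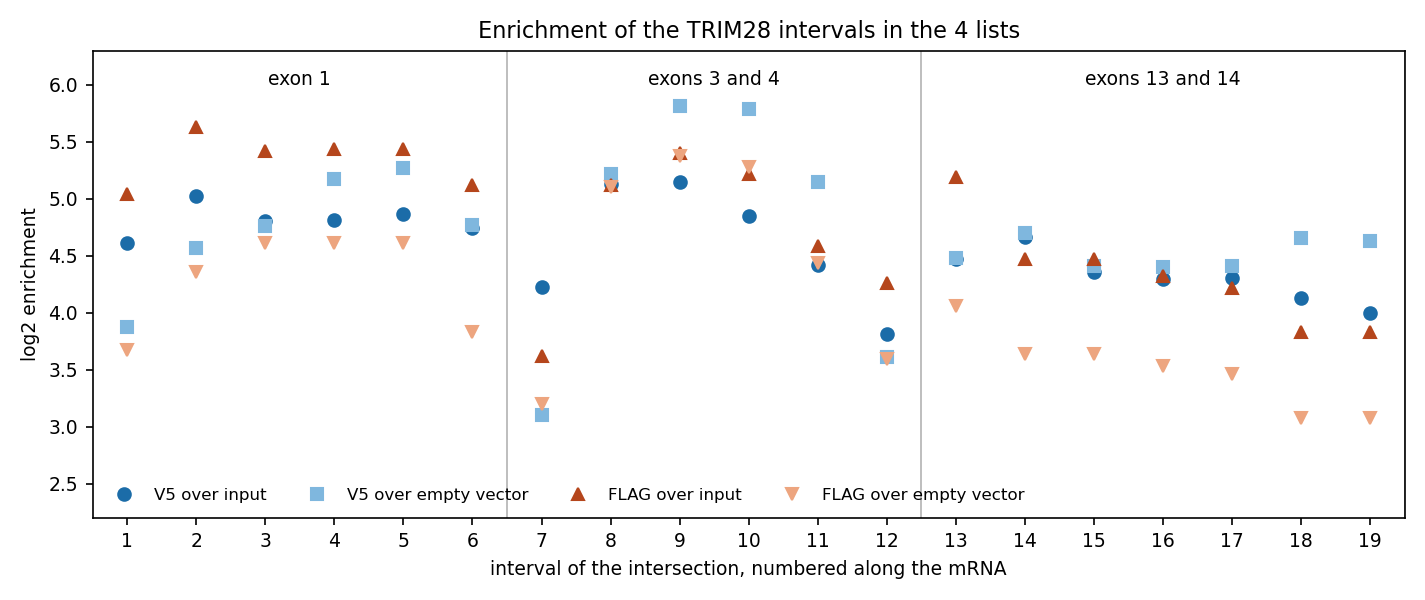
Log2 enrichment (y axis) of the 19 TRIM28 intervals of the intersection, numbered along the mRNA (x axis), with 1 symbol per list. FLAG over size-matched input is the highest of the 4 values for each of the 6 intervals of exon 1, and FLAG over the empty vector IP is the lowest for each of the 7 intervals of exons 13 and 14.

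The order of the antibodies depended on the control. Over size-matched input, FLAG minus V5 had a median of 0.25 on the log2 scale and was above 0 for 13 of 19 intervals. Over the empty vector IP the same difference had a median of -0.57 and was above 0 for 1 of 19. The sign was thus opposite under the 2 controls, and with 1 value per interval and list neither difference could be set against replicate error.

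The stretches differed in how the controls compared. In exon 1, FLAG was above V5 over size-matched input in 6 of 6 intervals, with a median difference of 0.59. In exons 3 and 4 the median was 0.21, with 4 of 6 above 0, and in exons 13 and 14 it was -0.09, with 3 of 7 above 0. For FLAG, the value over the empty vector IP minus that over size-matched input had a median of -1.05 in exon 1, -0.79 in exons 13 and 14, and -0.08 in exons 3 and 4. For V5 the same medians were -0.01, 0.10 and 0.37. The highest single value of each list lay in exon 3, apart from FLAG over size-matched input, whose maximum lay in exon 1. Medians over the intervals were higher in exon 1 for size-matched input (V5 4.81 against 4.64 in exons 3 and 4, FLAG 5.43 against 4.85). Over the empty vector IP they were higher in exons 3 and 4 (V5 5.18 against 4.77 in exon 1, FLAG 4.77 against 4.48). For interval 9 (58545827 to 58545843) the values were 5.15, 5.82, 5.40 and 5.38. For interval 18 (58549740 to 58549743) in exon 14 they were 4.13, 4.65, 3.83 and 3.07.

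**Figure D4:**
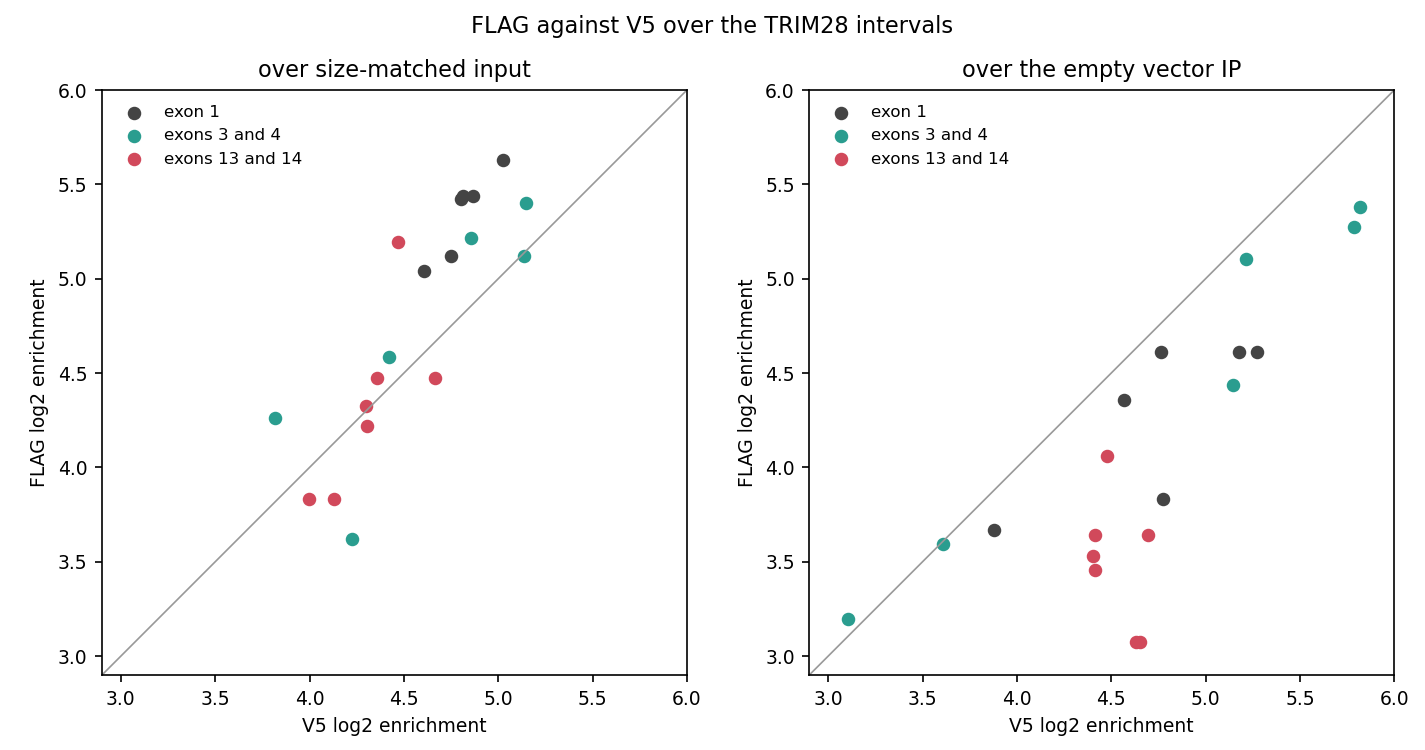
FLAG (y axis) against V5 (x axis) log2 enrichment of the 19 TRIM28 intervals with the size-matched input (left) or the empty vector IP (right) as control, coloured by exon, with the line of equal values. On the left 13 of 19 points lie above the line and on the right 1 of 19.

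Intervals were folded with 50 nt of flanking genome at each end to look for the GU-loop:5nt-stem. A site needed all 7 bases within the interval, a U with a pairing probability below 0.7, and 5 stem bases each above 0.5. It was found in 1 of the 19 TRIM28 intervals and in 36.6% of all 749 intervals. The interval was number 15 in exon 13, from 58549617 to 58549632, with the sequence acuGUCACCUgccggc. The length of an interval limits what it can hold: 3 TRIM28 intervals were under 7 nt and 7 had no GU at all. Among intervals of 7 to 24 nt the model called 9 of 127 in all genes together (7.09%). Of these 127, 13 were in TRIM28, with 1 call. Among intervals of 25 to 60 nt it called 69 of 222 in all genes (31.1%). Of these 222, 3 were in TRIM28, with 0 calls.

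When the spliced mRNA was folded in place of the genomic sequence, a site of exon 3, GUGCGCU at 58545884 to 58545890, was also called. It lies close to the junction with exon 4, so that the genomic flank holds intron sequence where the mRNA has exon 4. Whether this changed the call was not tested. Along the whole spliced mRNA there were 15 sites. Of these, 2 lay wholly in nucleotides that all 4 lists covered, 8 under no peak, and 1 (GUAGUGC, 58545020 to 58545026) across the end of the stretch in exon 1, where 3 lists covered all of it. Per kb of mRNA this was 5.68 sites where 4 lists covered it, 8.47 where at least 1 list did and 3.15 where none did, from 2, 7 and 8 sites. The stretch in exon 1, the longest of the 3, held none.

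Base composition differed along the mRNA. The GC content was 75.7% in the exon 1 stretch, 59.7% in exons 3 and 4 and 58.5% in exons 13 and 14. It was 64.2% for the whole mRNA and 62.1% where no list had a peak. Where all 4 lists covered the mRNA it was 66.2%, and where at least 1 list did it was 70.8%. The dinucleotide GU occurred 6, 11 and 7 times in the 3 stretches. The high GC content of the exon 1 stretch was thus not shared by the other stretches.

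The stretches were also placed on the protein, by searching the translated CDS of 835 codons for the spacing of the cysteines and histidines that hold zinc in each domain. These domains were searched after the positions of the peaks were known. The RING finger spacing lay at codons 65 to 120, in exons 1 and 2, and all 4 lists covered 73 of its 168 nt. The B-box 1 spacing lay at codons 153 to 190, wholly in exon 3, and 106 of its 114 nt were covered by all 4 lists. The PHD finger spacing lay at codons 628 to 669, in exons 13 and 14, with 74 of 126 nt covered by all 4. No nucleotide of the B-box 2 spacing at codons 209 to 240 was covered by all 4 lists, and the V5 lists covered 6 and 17 of its 96 nt. The HP1 box at codons 486 to 490 in exon 12 lay under no peak. Of the 352 nt that all 4 lists covered, 253 lay in the RING finger, B-box 1 or PHD finger spacing and 99 lay outside. These are the spacings of which all 4 lists covered a part, so nothing is read from the sum. They take up 168, 114 and 126 of the 3364 nt of the mRNA. The coiled coil and the bromodomain were not placed. In exon 1, 76 of the 149 nt covered by all 4 lists lay before the RING finger spacing.

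Among the 406 genes with an interval in the intersection, TRIM28 had the most intervals by construction (19, against a median of 1). By its number of peaks in the single lists it ranked 2 in both V5 lists, 8 in FLAG over size-matched input and 3 in FLAG over the empty vector IP. In the intersection TRIM28 was followed by H2AC11, a histone H2A gene with near-identical copies, with 13 intervals. AEN, a nuclease gene, and ATF3, a stress-response transcription factor, had 12 each. TRIM28 stood lower by other measures. It was 9th by covered nucleotides (325 nt, highest AEN with 648 nt), 11th by intervals per kb of mRNA (5.65, highest H2AC11 with 26.4), and 27th by the share of its mRNA in the intersection (9.66%). By its highest enrichment over size-matched input, averaged over V5 and FLAG (5.39), it was 37th. By its highest value over the empty vector IP it was 11th for V5 and 7th for FLAG.

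The number of intervals depended on the step at which touching pieces were merged. When touching intervals of the intersection were merged, TRIM28 had 16 and still ranked 1. When touching peaks of each list were merged before the lists were intersected, an alternative added after the data were seen, there were 526 intervals in 390 genes. TRIM28 then had 5 and shared rank 4 with 3 other genes, with H2AC11 first (7). None of these 5 lay in exon 1, because the V5 run of 231 nt there was covered for less than 50% by any single merged FLAG piece. Exons 3 and 4 kept 122 and 7 nt, and exons 13 and 14 kept intervals of 44, 7 and 10 nt.

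**Figure D5:**
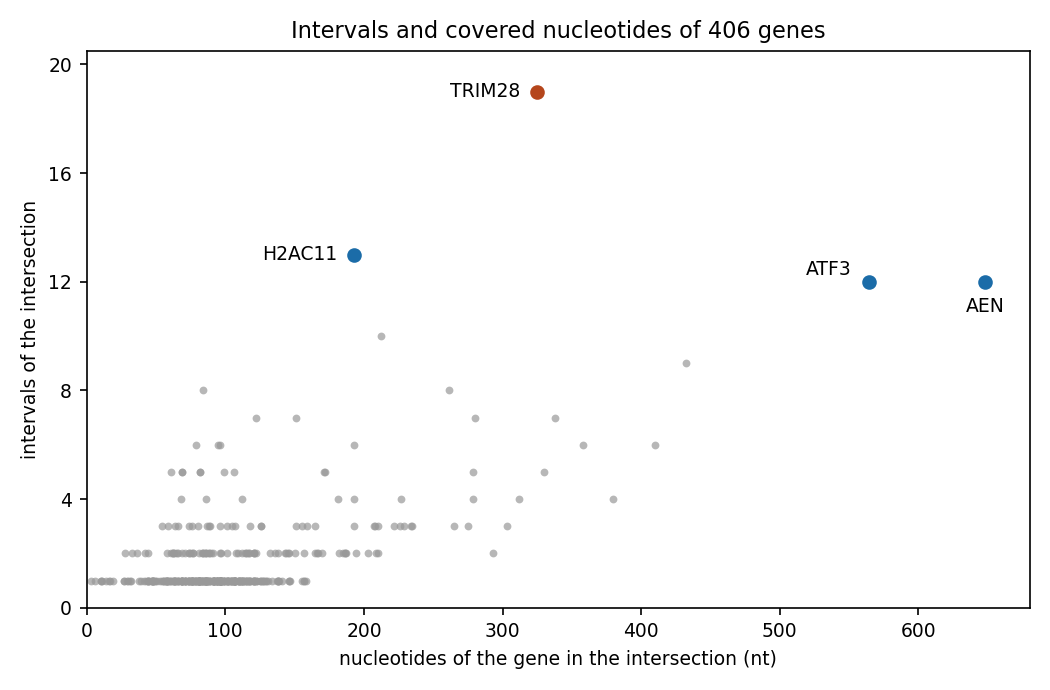
Number of intervals of the intersection (y axis) against nucleotides in the intersection (x axis) for 406 genes, 1 point per gene, with TRIM28 in red and the next 3 genes by intervals in blue. TRIM28 has 19 intervals on 325 nt, and AEN has 12 on 648 nt.

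The genes whose 4 maxima lay nearest to those of TRIM28, by Euclidean distance on the log2 scale, were IRAK1 (0.31), ZNF672 (0.58), SUN2 (0.74), EEF1G (0.75) and GOT1 (0.91). IRAK1, a kinase of interleukin-1 and Toll-like receptor signalling, had maxima of 5.02 and 5.62 in the V5 lists and of 5.80 and 5.28 in the FLAG lists, the input comparison first. It had 8 intervals on 261 nt. EEF1G had 10 intervals, GOT1 had 3, and ZNF672 and SUN2 had 2 each, against 19 in TRIM28 and a median of 1 over 406 genes.

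A list of 39 genes held known partners and relatives of the TRIM28 protein, and was chosen with earlier results of these data known. Of these, 14 had a peak in V5 over size-matched input and 9 in V5 over the empty vector IP. For FLAG these numbers were 9 and 5. Among 20020 protein-coding genes the shares with a peak were 13.3%, 6.56%, 12.9% and 4.88%. In the intersection there were 3 of the 39, against 2.01% of protein-coding genes. The expression of these genes in the cells was not measured here, and no test was made.

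The 3 in the intersection were MDM2, a ubiquitin ligase that binds TRIM28, with 7 intervals, and CHD3, a NuRD remodeler, and PPP1CA, a catalytic subunit of protein phosphatase 1, with 3 each. MDM2 had 17, 12, 9 and 6 peaks in the 4 lists, with maxima of 5.19 and 4.50 in V5 and 5.01 and 4.17 in FLAG. PPP1CA had maxima of 5.38, 5.29, 5.20 and 4.59 in the same order. CHD3 had 4.76 and 4.69 in V5 and 3.94 and 3.52 in FLAG.

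Other partners had peaks in some lists. DNMT1, the maintenance DNA methyltransferase, had 1, 3 and 4 peaks in the V5 lists and in FLAG over size-matched input, and CBX1, which encodes HP1-beta, had peaks in all lists but V5 over the empty vector IP. No peak in any list lay in SETDB1, in CBX3 or CBX5 (the other HP1 genes), in HDAC1 or HDAC2, or in TRIM24 and TRIM33, the closest relatives of TRIM28.

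No peak lay in the genes next to TRIM28 on either strand, ZBTB45, RN7SL525P, CHMP2A, UBE2M and MZF1-AS1. MIR6807, a microRNA gene that fills the intron between exons 16 and 17 of TRIM28 (58550285 to 58550376), had none either.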

How the data were processed

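Per the labels and the paper's methods, the authors sequenced 12 eCLIP libraries, trimmed and aligned the reads to hg38 (cutadapt 1.14, STAR 2.4.0i, SAMtools 1.6 and UMI-tools 1.0.0 in the submitters' processing notes), called peaks with the Yeo laboratory's eCLIP pipeline, and combined both replicates with the Irreproducible Discovery Rate. The authors deposited, per peak, a log2 enrichment and a −log10 p-value. No peak lay below 3.00 in log2 or 3.01 in −log10 p. The peak caller's version, the annotation used for calling and the scaling for library size are not given in the sources used here, and depth is unknown.

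From these lists, V5 peaks over size-matched input were intersected with V5 peaks over the empty vector IP, FLAG peaks likewise, and the V5 pieces with the FLAG pieces (same strand, at least 50% of the first interval, keeping the shared part). bedtools 2.31.1 gave the same 749 intervals. Exons, codons and regions came from GENCODE version 44 (Ensembl 110) and the hg38 sequence. Pairing probabilities were computed with RNAplfold of ViennaRNA 2.7.2 (window and span of 70, u = 1) and the statistics with Python 3.11.15, numpy 2.4.6 and pandas 2.3.3. The intersection and the motif search were checked on simulated lists and hairpins. The gene, the list of partner genes and the rules were chosen with earlier results of these data known. Named genes were TRIM28, the 3 genes next by intervals, the 5 nearest by their 4 maxima, the listed partners with a peak, and annotated neighbours. The values of 1 listed partner are not reported here. The partners without a peak, and the genes that lead other rankings, were named after their values were seen. No test was made. Positions are 1-based.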

Additional observations from a re-analysis of the deposited data

How the results depend on the processing

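No paired analysis was possible because each list holds 1 value per peak for both replicates, and no replicate could be left out for the same reason. The 19 intervals became 28 with an overlap of at least 1 nt, 14 with a reciprocal overlap, 16 with FLAG first, 9 with a log2 of at least 4, 5 with touching peaks merged first, and 3 when joined along the spliced mRNA over up to 10 nt, which was added after the data were seen. Merging touching peaks left 15, 12, 10 and 9 peaks in V5 over input, V5 over empty vector, FLAG over input and FLAG over empty vector. A log2 of at least 4 left 21, 22, 15 and 8, and lowered the covered share of the mRNA to 13.2%, 12.3%, 12% and 5.29%. Over the union of exons of all transcripts the shares were 16.6%, 14.9%, 14.1% and 9.36%, as 4306 nt were counted. The FLAG overlap of 86.4% was 64.5% in nucleotides and 53.3% at a log2 of at least 4. FLAG minus V5 was -0.57 over the empty vector IP (opposite sign) and 0.37 over the 6 intervals of at least 20 nt. The motif share was 5.26% in the 19 intervals, 10.5% in the spliced fold, 9.09% in the V5 or FLAG peaks over input, and 0.0% with stem bases over 0.7. For these alternatives the share over all genes was not computed. The rank was 1 after merging intervals that touch, 9 by covered nucleotides, 11 per kb and 4 with touching peaks merged first. At a log2 of at least 4, 3, 5, 2 and 3 partners had a peak, and 1 in the intersection. The share of all protein-coding genes at this cut was not computed, so nothing is read from these counts. The cause of these changes was not tested. Counting a peak in each region it overlaps left the number of peaks in the CDS as it was. The V5 overlap of 84.8% was 84.8% with 1 nt, 78.8% in nucleotides and 85.7% at a log2 of at least 4.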
